A study of Mus musculus with 12 samples.

Results

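Mouse ear skin inflamed with imiquimod was compared with and without GW3965, a synthetic agonist of the liver X receptors (LXR), in 6 of the 12 bulk mRNA libraries of the study. The libraries were chosen by the treatment named in their titles: 3 were IMQ_GW3965 and 3 were IMQ_Veh, and the genes described are drawn from the 17130 that passed a filter on low counts. The IMQ_GW3965 mice received GW3965 by intraperitoneal injection at 20 mg/kg once daily from day 3, and the IMQ_Veh mice received its DMSO vehicle. Both groups were C57BL/6 mice aged 8 to 12 weeks whose ears were treated each day with 20.8 mg of Aldara, a cream with 5% imiquimod, a ligand of Toll-like receptor 7 that provokes psoriasis-like inflammation in mouse skin. Skin was taken a day after the last application, and every title names day 6. Of the other 6 libraries, the IMQ_Troglitazone group had the same cream with the PPARγ agonist troglitazone at 150 mg/kg, and the UTX_Veh group, whose abbreviation is not explained in the labels, names no imiquimod. No mutant allele is named for any group. Whether each of the 3 libraries of a group is a separate animal is not stated. A p-value here therefore reads only the variation among libraries, part of which may be technical.

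LXRα (Nr1h3) and LXRβ (Nr1h2) are nuclear receptors that bind oxysterols, the oxidised derivatives of cholesterol, and act as dimers with a retinoid X receptor on a repeated DNA element called DR4. Their classical targets carry cholesterol out of the cell (Abca1, Abcg1, Apoe), lower its uptake (Mylip) and switch on fatty acid synthesis through Srebf1 and the desaturase and elongase enzymes. In the epidermis LXR agonists are known to speed barrier formation and lipid synthesis, and in macrophages ligand-bound LXR represses many inflammatory genes.

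Total expected counts in the 6 libraries ran between 18242074 (IMQ_GW3965 replicate 3) and 25641602 (IMQ_Veh replicate 2). The libraries are called GW1 to GW3 and Veh1 to Veh3 below by their replicate numbers, which are used here as names and not as pairs. A pair of libraries stood apart. In GW3, 11.6% of counts fell on the feature ENSMUSG00000119584, which held between 0.0454% and 0.138% in every other library of the series. Skeletal muscle markers made up 1.35, 0.976 and 0.788% of counts in the IMQ_GW3965 libraries and 0.212, 0.253 and 0.840% in the IMQ_Veh libraries, so that Veh3 lay far above the other IMQ_Veh libraries and inside the range of the IMQ_GW3965 libraries. Expected counts are the authors' RSEM estimates of the reads of each gene, tested with edgeR's quasi-likelihood test, and every adjusted p below is from that test with Benjamini-Hochberg adjustment over all 17130 genes. A gene rose or fell where that value was under 0.05. Levels are in CPM, counts relative to the library total scaled by edgeR's TMM method, and log2 fold changes are given with GW3965 over vehicle, ± SE.

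Of the 17130 genes, 1129 passed the threshold (6.59%), 635 of them higher (3.71%) and 494 lower (2.88%) with GW3965. The median log2 fold change was 0.93 among the genes that rose and -0.72 among those that fell, against -0.01 over all genes tested, and 290 and 176 of them changed by more than 2-fold. The groups did not overlap in any of the 635 higher genes, nor in 490 of the 494 lower ones. Over all genes tested, 12.7% had every IMQ_GW3965 library above every IMQ_Veh library and 12% had every one below. The number of calls depended on single libraries. It was 105 without GW1 (0.613% of genes tested; 0.45% higher and 0.163% lower), 435 without GW2 (2.54%; 1.45% higher and 1.09% lower) and 425 without GW3 (2.48%; 1.66% higher and 0.817% lower). It was 156 without Veh1 (0.911%; 0.607% higher and 0.304% lower), 751 without Veh2 (4.38%; 2.39% higher and 1.99% lower) and 3660 without Veh3 (21.4%; 12.6% higher and 8.78% lower). DESeq2 called 2222 genes (13.8% of the 16120 with an adjusted p; 7.28% higher and 6.5% lower). The file names carry a field, L001 or L009, whose meaning no label gives, called the lane field here. As a covariate it left 549 calls (3.2%; 1.89% higher and 1.32% lower). Of the 126 named genes with a call, 83 kept it in that fit. All 126 had the same direction within each lane field, where 1 or 2 libraries a group stood on each side. That direction is fixed for a gene whose groups do not overlap, so it is no test of a lane effect. Fitted on the 6 libraries alone, which leaves fewer libraries to estimate the spread, 110 genes passed (0.642%, with 0.397% higher and 0.245% lower) and 33 of the named calls were kept. The main fit also takes its spread from groups not compared here. Chi-square per degree of freedom between 2 libraries of a group was 8.34 to 16.1 in UTX_Veh and 14.8 to 39.9 in IMQ_Troglitazone. It was 44.05 to 96.6 in IMQ_Veh and 19.9 to 216 in IMQ_GW3965, highest in pairs with GW3. These values include ENSMUSG00000119584, which held 11.6% of counts in GW3, and were not computed without it. They therefore do not show how far GW3 differed in other genes. Whether the shared spread makes the p-values too small was not tested. No gene of the 1129 changed sign in any of 18 alternative fits, which included 2 other scalings. Since the groups do not overlap in nearly all of these genes, a kept sign is no measure of stability. Of the 1129, 93 (69 higher and 24 lower) passed the threshold with each of the 6 libraries left out in turn. Each paragraph below says which named calls were lost without a library. List counts given there without a library are to be read beside the shares of all genes given here.

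Genes of fatty acid synthesis that LXR is known to control rose together. Of 12 tested members of a list of LXR targets in lipid synthesis, 8 rose and none fell, where 3.71% of all genes rose, and the list's median log2 fold change was 0.76. Srebf1 (ENSMUSG00000020538, chr11:60199089-60222581 on GRCm38), the transcription factor that drives fatty acid synthesis, had 311, 347 and 265 CPM in the IMQ_GW3965 libraries, against 111, 159 and 123 CPM in the IMQ_Veh libraries (log2 fold change 1.23 ± 0.15, adjusted p = 0.00276). All 3 treated libraries lay above all vehicle libraries, and the mean reached 308 ± 41.4 CPM, against 131 ± 25.4 CPM with vehicle and 252 ± 12.3 CPM in UTX_Veh (SD, n = 3 each). Elovl6, which lengthens palmitate, had 466, 422 and 426 CPM in the IMQ_GW3965 libraries, against 181, 246 and 211 CPM in the IMQ_Veh libraries (log2 fold change 1.04 ± 0.15, adjusted p = 0.00665). Elovl5, an elongase of polyunsaturated fatty acids, had 92.4, 73.7 and 78.9 CPM with GW3965 and 48.0, 43.8 and 54.6 CPM with vehicle (log2 fold change 0.74 ± 0.10, adjusted p = 0.006). Scd1, which inserts the double bond of oleate, had 5405, 3985 and 4212 CPM in the IMQ_GW3965 libraries, against 1016, 2140.4 and 2183 CPM in the IMQ_Veh libraries (log2 fold change 1.35 ± 0.24, adjusted p = 0.0158). Veh1 was the lowest library for Scd1. Fasn, which makes palmitate, had 833, 677 and 559 CPM with GW3965 and 344, 487 and 378 CPM with vehicle (log2 fold change 0.77 ± 0.19, adjusted p = 0.0367). The groups did not overlap in any of these genes. Fads2, Acaca and Pnpla3 also rose, by 1.29, 0.49 and 0.97. The members short of the threshold, Scd2, Fads1, Mlxipl and Acsl3, had log2 fold changes between 0.37 and 0.72. With single libraries left out, calls ended for Scd1 without GW1 (adjusted p up to 0.073), Fasn and Acaca without GW1, GW2 or Veh1 (adjusted p up to 0.15), and Fads2 and Pnpla3 without GW1, GW2, GW3, Veh1 or Veh2 (adjusted p up to 0.15). Those of Srebf1, Elovl5 and Elovl6 held without any single library. The list had 3 higher members without GW1, 4 without either GW2 or Veh1, 5 with the lane covariate and 2 in the 6 libraries alone.

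The upstream sequence of these genes was searched for the core of the DR4 element (GGTNA, any 5 bases, then GGTNA) on both strands of the 250 bases before each gene's start (RefSeq, GRCm38.p6). The motif stood in 3 of the 9 lipid synthesis targets with a window (33.333%: Srebf1, Fasn and Acsl3) and in 1 of 13 targets of sterol transport (7.692%: Abca1). Of all 32851 windows, 204 held it (0.621%). The other shares count genes, where a match in any window of a gene was enough. Of the 12208 tested genes with a window, 65 held it (0.532%). So did 3 of the 482 with a window that rose (0.622%) and 0 of the 353 that fell. The 4 windows are shown because they are those of the 2 LXR target lists that hold the motif. Rarres1, on neither list, also held it and rose (log2 fold change 1.47 ± 0.21, adjusted p = 0.006). Each runs 5′ to 3′ on the gene's strand and ends at the base before its start, and the capitals mark the match, which lies on the opposite strand in all 4. The windows are chr11:60210472-60210721 (minus strand, inside the Srebf1 gene of GENCODE M21 but in none of its exons), chr11:120824548-120824797 (minus strand), chr1:78657575-78657824 (plus strand) and chr4:53159896-53160145 (minus strand), and the last 3 overlap no annotated gene.
Srebf1: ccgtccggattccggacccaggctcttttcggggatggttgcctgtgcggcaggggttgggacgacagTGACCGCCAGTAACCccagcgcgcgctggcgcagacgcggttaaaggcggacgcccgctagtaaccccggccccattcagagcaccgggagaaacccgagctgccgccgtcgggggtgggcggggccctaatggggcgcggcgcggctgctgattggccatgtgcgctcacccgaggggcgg
Fasn: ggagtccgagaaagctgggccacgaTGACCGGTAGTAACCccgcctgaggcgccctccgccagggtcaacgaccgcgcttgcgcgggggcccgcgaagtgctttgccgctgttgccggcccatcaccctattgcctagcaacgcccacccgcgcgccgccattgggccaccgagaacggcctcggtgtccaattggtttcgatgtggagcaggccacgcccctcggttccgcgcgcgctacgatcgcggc
Acsl3: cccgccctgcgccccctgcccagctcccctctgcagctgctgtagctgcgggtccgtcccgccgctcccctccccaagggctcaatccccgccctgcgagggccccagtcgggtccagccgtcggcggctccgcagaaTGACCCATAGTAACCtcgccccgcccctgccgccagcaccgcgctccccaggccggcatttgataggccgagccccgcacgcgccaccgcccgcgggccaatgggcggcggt
Abca1: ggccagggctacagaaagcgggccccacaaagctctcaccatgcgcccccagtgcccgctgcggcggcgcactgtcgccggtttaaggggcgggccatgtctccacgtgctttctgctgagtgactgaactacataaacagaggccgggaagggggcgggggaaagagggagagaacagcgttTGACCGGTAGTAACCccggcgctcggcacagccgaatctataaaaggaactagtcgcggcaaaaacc
Read on the opposite strand, the match was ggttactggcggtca for Srebf1, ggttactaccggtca for both Fasn and Abca1, and ggttactatgggtca for Acsl3. Of these 4 genes, Srebf1 and Fasn rose, while Acsl3 (log2 fold change 0.37 ± 0.10, adjusted p = 0.053) and Abca1 (log2 fold change 0.78 ± 0.24, adjusted p = 0.0703) stayed short of the threshold. The median log2 fold change of the 65 tested genes with the motif was 0.07, against -0.01 over the 12208. A match describes letters in this window and is not a measured binding site.

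In the other arm of the LXR programme, sterol transport and lipoproteins, 4 of 19 tested members rose and none fell, with a list median of 0.16. Apod, a lipid-binding protein of the lipocalin family, had 1209, 781 and 749.8 CPM in the IMQ_GW3965 libraries, against 170.3, 247 and 240.2 CPM in the IMQ_Veh libraries (log2 fold change 2.06 ± 0.20, adjusted p = 0.00222). Apoe (chr7:19696109-19699188), the lipoprotein component that takes up exported cholesterol, had 2049, 1945 and 2008 CPM in the IMQ_GW3965 libraries, against 930.2, 1122 and 957 CPM in the IMQ_Veh libraries (log2 fold change 0.996 ± 0.11, adjusted p = 0.00254). The Apoe values within each group were close together, with means of 2001 ± 52.7 CPM with GW3965 and 1003 ± 104 CPM with vehicle, beside 1654 ± 106 CPM in UTX_Veh (SD, n = 3 each). Mylip, a ubiquitin ligase that lowers cholesterol uptake, had 59.7, 48.4 and 53.2 CPM with GW3965 and 30.4, 32.5 and 33.6 CPM with vehicle (log2 fold change 0.74 ± 0.13, adjusted p = 0.0125). Lpcat3, which loads polyunsaturated chains onto phospholipids, had 135, 142 and 139 CPM with GW3965 and 109, 122 and 91.4 CPM with vehicle (log2 fold change 0.38 ± 0.10, adjusted p = 0.0429). The cholesterol exporters Abca1 and Abcg1 did not pass. Abca1 had 119, 179 and 124 CPM in the IMQ_GW3965 libraries, against 88.8, 56.0 and 101 CPM in the IMQ_Veh libraries (log2 fold change 0.78 ± 0.24, adjusted p = 0.0703), and Abcg1 had 55.5, 76.8 and 67.4 CPM with GW3965 and 54.2, 35.8 and 52.5 CPM with vehicle (log2 fold change 0.49 ± 0.17, adjusted p = 0.107), with every treated library above every vehicle library in both. Abca1 passed under DESeq2 (adjusted p = 0.0213) and without Veh3 (adjusted p = 0.0213). The calls lost in the leave-out fits were those of Mylip without GW1 or Veh1 (adjusted p up to 0.0642); Lpcat3 without GW1, GW2, GW3 or Veh1 (adjusted p up to 0.126). Apod and Apoe kept theirs in all 18 alternative fits.

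Of 10 tested receptors, partners and coregulators, none passed the threshold by edgeR or DESeq2, while 4 had an unadjusted p under 0.05, and their median log2 fold change was -0.01. Nr1h2 had 66.3, 65.1 and 58.5 CPM with GW3965 and 52.8, 56.3 and 55.2 CPM with vehicle (log2 fold change 0.21 ± 0.08, adjusted p = 0.107), and Nr1h3 had 8.72, 7.85 and 5.95 CPM with GW3965 and 3.63, 2.94 and 6.93 CPM with vehicle (log2 fold change 0.75 ± 0.31, adjusted p = 0.15; 0.00908 without Veh3, which was its highest vehicle library). The most abundant members were Rxra (284 ± 12.2 CPM with GW3965 and 288 ± 13.1 CPM with vehicle, SD, n = 3 each) and the corepressor Ncor1 (119.9 ± 10.2 CPM with GW3965 and 125 ± 1.45 CPM with vehicle). Without Veh3, 2 members of the list rose. Among 13 oxysterol enzymes and binding proteins, 2 rose and 1 fell. Osbpl1a, an oxysterol-binding protein, and Ephx1, an epoxide hydrolase, rose by 0.66 ± 0.14 and 1.01 ± 0.24. Cyp7b1, the hydroxylase that breaks down side-chain oxysterols, fell to 14.2 ± 5.67 CPM with GW3965, against 34.0 ± 4.33 CPM with vehicle (log2 fold change -1.27 ± 0.32). Lost calls were those of Osbpl1a, Ephx1 and Cyp7b1 without GW1, GW2, GW3, Veh1 or Veh2 (adjusted p up to 0.139). For cholesterol synthesis, which SREBP2 and not LXR is known to drive, 3 of 25 genes rose without Veh2. With all libraries, 1 of the 25 rose and none fell. That gene was Insig1, which holds the SREBP proteins in the endoplasmic reticulum, with 97.8, 86.7 and 90.2 CPM with GW3965 and 64.5, 60.2 and 51.0 CPM with vehicle (log2 fold change 0.64 ± 0.11, adjusted p = 0.0141; lost without GW1, adjusted p = 0.0701).

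**Figure D1:**
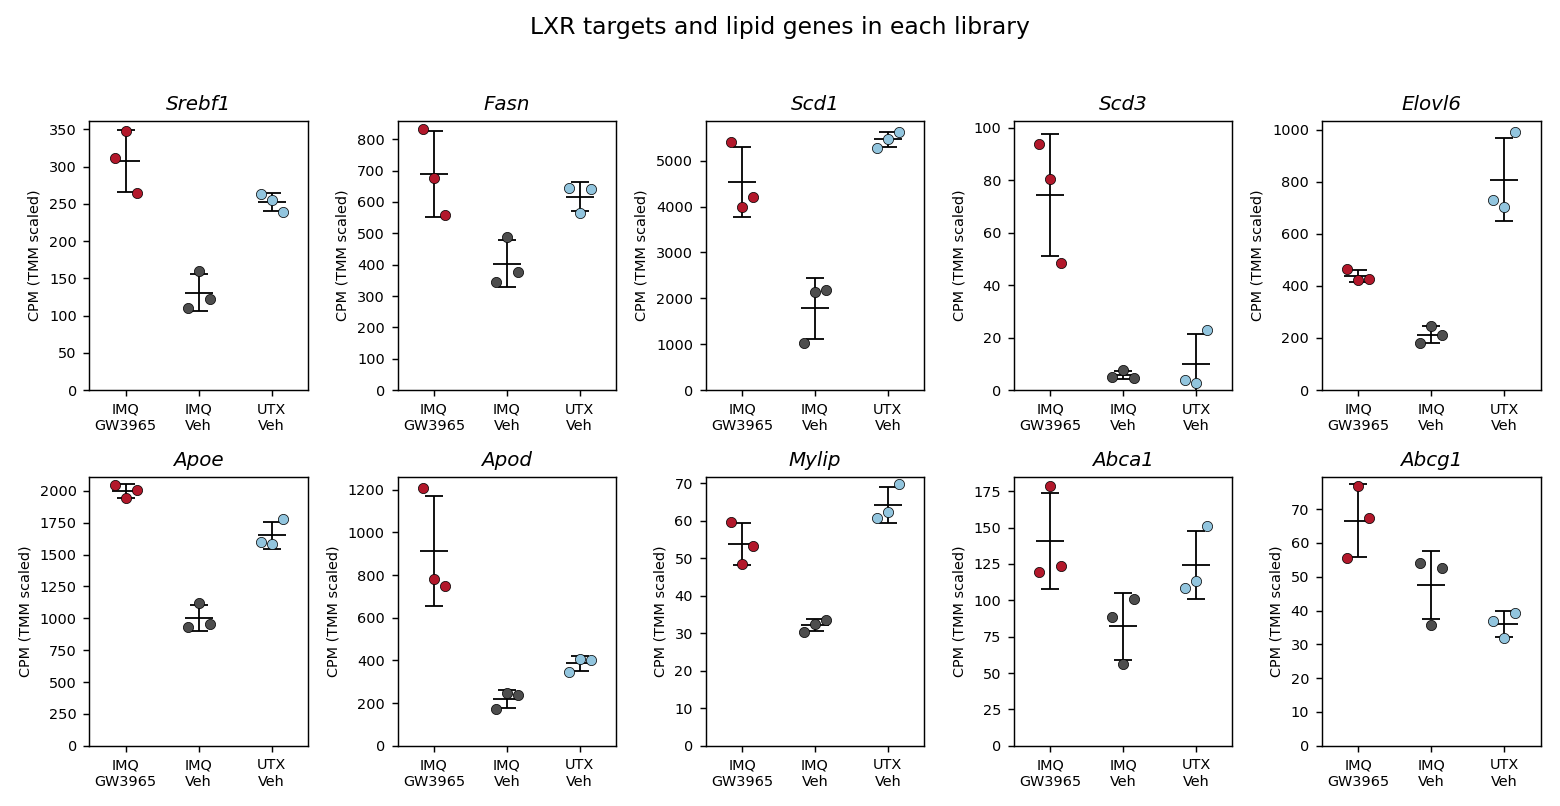
TMM-scaled CPM of 10 LXR targets and lipid genes in each library (points) with the mean and SD of each group (bars), for IMQ_GW3965, IMQ_Veh and UTX_Veh, each axis starting at 0. The treated points of Srebf1, Scd3, Apoe and Apod all lie above the vehicle points, and those of Abca1 and Abcg1 lie above them by a narrower gap.

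The largest rise of any named gene was that of a sebaceous gland enzyme, Scd3, a desaturase found in mouse sebocytes. Scd3 (ENSMUSG00000025202, chr19:44203269-44244016) had 93.9, 80.5 and 48.6 CPM in the IMQ_GW3965 libraries, against 5.03, 7.52 and 4.46 CPM in the IMQ_Veh libraries (log2 fold change 3.70 ± 0.66, adjusted p = 0.015), and RSEM could divide reads between it and its similar paralogs Scd1 and Scd2. Of 21 sebaceous gland genes, 6 rose and none fell, with a median of 0.85. Soat1, which esterifies cholesterol, had 273, 235 and 224 CPM with GW3965 and 80.3, 145 and 104 CPM with vehicle (log2 fold change 1.15 ± 0.18, adjusted p = 0.00854). Awat2, which makes wax esters, had 4.48, 5.56 and 5.27 CPM with GW3965 and 1.82, 2.37 and 1.73 CPM with vehicle (log2 fold change 1.36 ± 0.33, adjusted p = 0.036), and Mc5r, the melanocortin receptor of sebocytes, Far2 and Krt79 rose by 1.08, 1.01 and 0.85. The summed sebaceous list made up 0.381, 0.313 and 0.304% of counts in the IMQ_GW3965 libraries and 0.173, 0.340 and 0.169% in the IMQ_Veh libraries, so Veh2 lay inside the treated range. Sebaceous genes that rose numbered 11 without Veh2, 2 without GW2 or without GW3, and 1 without GW1, without Veh1 or in the 6 libraries alone. Of 29 genes of fatty acid synthesis, a list that shares members with the LXR list, 11 rose and none fell (median 0.38), among them Acss2, which makes acetyl-CoA from acetate (0.60 ± 0.12), and the acyl-CoA synthetase Acsl5 (0.41 ± 0.08). The rises in this list numbered 2 without GW1 or without Veh1, 5 without GW2, 6 without GW3, 6 with the lane covariate and 1 in the 6 libraries alone. PPAR genes moved in both directions, 3 higher and 2 lower of 20, with 6 higher without Veh3. Pparg, the receptor of fat and sebaceous cells, had 17.6, 13.5 and 18.2 CPM with GW3965 and 7.52, 8.69 and 10.4 CPM with vehicle (log2 fold change 0.89 ± 0.17, adjusted p = 0.0187), and Cd36, a fatty acid transporter, and Acadm, an enzyme of β-oxidation, rose by 1.103 ± 0.24 and 0.53 ± 0.13. Ppard, the PPAR form of the epidermis, fell to 89.6 ± 11.4 CPM with GW3965, against 143 ± 21.4 CPM with vehicle (-0.67 ± 0.14), and Fabp5, a fatty acid-binding protein of keratinocytes, fell by 0.76. Calls were lost for Cd36 without GW1 or GW3 (adjusted p up to 0.102), Scd3 and Acss2 without GW1 or Veh1 (adjusted p up to 0.0817), Acsl5 and Pparg without GW1, GW3 or Veh1 (adjusted p up to 0.0819), Far2, Krt79 and Fabp5 without GW1, GW2, GW3 or Veh1 (adjusted p up to 0.181), Ppard without GW1, GW3, Veh1 or Veh2 (adjusted p up to 0.11), and Awat2, Mc5r and Acadm without GW1, GW2, GW3, Veh1 or Veh2 (adjusted p up to 0.147). Adipocyte markers, of which 2 of 17 rose (Pnpla2 and Sult1a1, median 1.01), summed to 0.158, 0.111 and 0.110% of counts in the IMQ_GW3965 libraries and 0.0534, 0.0375 and 0.111% in the IMQ_Veh libraries, and the part of fat and gland tissue in the lipid genes was not tested.

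**Figure D2:**
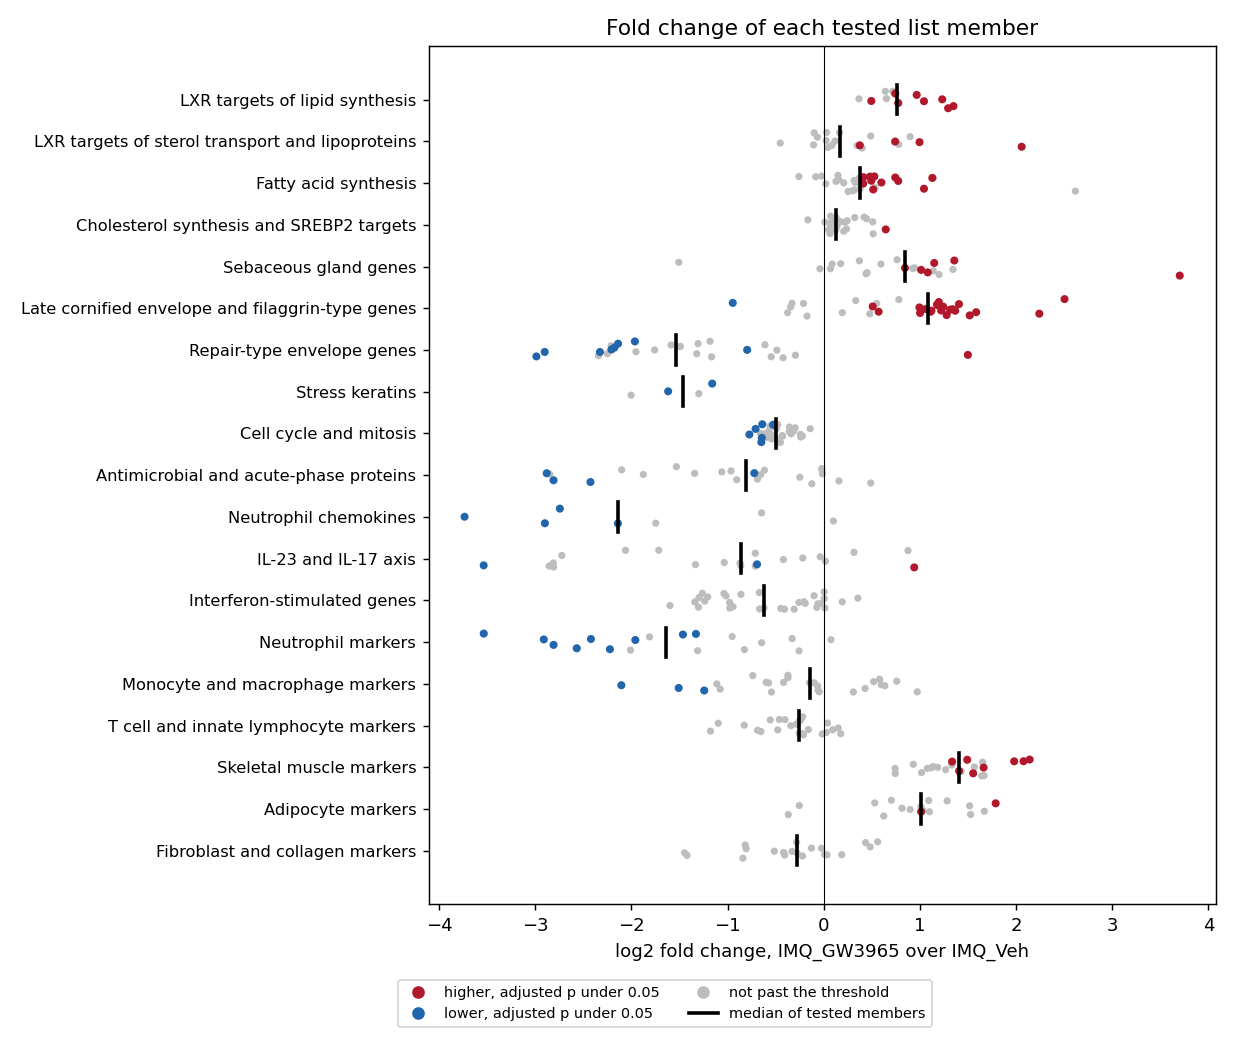
Log2 fold change of IMQ_GW3965 over IMQ_Veh (x axis) for each tested member of 19 gene lists (rows), coloured where the adjusted p was under 0.05, with the list median as a black bar. The medians of the lipid synthesis and late envelope lists lie right of 0, and those of repair-type envelope genes, neutrophil chemokines and neutrophil markers lie left of it, with Tgm3 (late envelope) and Sprr4 (repair-type) called on the other side.

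Late envelope genes of the cornified layer were the list with the most calls. These encode proteins that keratinocytes crosslink into the cornified envelope late in differentiation. Of 32 tested, 21 rose and 1 fell, with a median of 1.09. All 15 tested Lce1 and Lce6a genes rose, by between 1.06 (Lce1e) and 2.24 (Lce1m). Lce1m had 255, 189.5 and 143 CPM in the IMQ_GW3965 libraries, against 38.4, 27.8 and 58.3 CPM in the IMQ_Veh libraries (log2 fold change 2.24 ± 0.32, adjusted p = 0.006). Lce6a had 141, 131 and 155 CPM with GW3965 and 49.1, 35.8 and 57.8 CPM with vehicle (log2 fold change 1.59 ± 0.19, adjusted p = 0.00276), and Lce1h had 277, 267 and 263 CPM with GW3965 and 104, 80.8 and 119 CPM with vehicle (log2 fold change 1.41 ± 0.16, adjusted p = 0.00276). The UTX_Veh libraries had 88.3, 99.4 and 88.2 CPM of Lce1h and 34.1, 34.7 and 34.9 CPM of Lce6a, below every treated library. Flg2 (ENSMUSG00000049133, chr3:93197278-93221391), a filaggrin-like barrier protein, showed the largest rise of the list. It had 523, 488 and 309 CPM in the IMQ_GW3965 libraries, against 44.1, 64.3 and 124 CPM in the IMQ_Veh libraries (log2 fold change 2.504 ± 0.37, adjusted p = 0.00656), beside 1444, 1625 and 1578 CPM in UTX_Veh. Lor, the main protein of the envelope, had 3265, 3262 and 3102 CPM with GW3965 and 2002, 1166 and 1662 CPM with vehicle (log2 fold change 0.995 ± 0.20, adjusted p = 0.0207). Hrnr, Kprp, Cdsn and Dmkn rose by 1.002, 1.11, 0.57 and 0.51. The transglutaminase Tgm3 fell by 0.95. Flg, with 2468, 3037 and 3066 CPM with GW3965 and 2424, 926 and 2797 CPM with vehicle (log2 fold change 0.48 ± 0.31, adjusted p = 0.351), and Ivl (log2 fold change 0.55 ± 0.23, adjusted p = 0.164) overlapped between the groups. With single libraries left out, calls ended for Lor without GW1 or GW2 (adjusted p up to 0.0819); Hrnr, Cdsn, Dmkn and Tgm3 without GW1, GW2, GW3, Veh1 or Veh2 (adjusted p up to 0.147). All 15 calls of Lce1 and Lce6a genes, and those of Flg2 and Kprp, held without any single library. The list had 17 or more higher members in each of those fits, 18 with the lane covariate and 14 in the 6 libraries alone, and 2 lower members without Veh3. Lce1 genes are near-identical copies between which RSEM could divide reads. Keratinocyte markers made up 6.08, 6.79 and 6.47% of counts in the IMQ_GW3965 libraries and 7.33, 5.66 and 6.57% in the IMQ_Veh libraries, with overlapping groups.

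Within the same stretch of chromosome 3, the epidermal differentiation complex, other envelope genes went the other way. Between S100a10 and S100a13 (chr3:90514435-93564643), 65 protein-coding genes were tested, of which 23 rose and 8 fell, where 3.935% of all 14967 tested protein-coding genes rose and 3.04% fell, and the median log2 fold change over the cluster was -0.00069. The log2 fold changes spanned -2.99 (Sprr2b) to 2.504 (Flg2). Of 26 repair-type envelope genes, the small proline-rich Sprr proteins, Lce3 proteins and stefins that injured epidermis makes, 8 fell and 1 rose, with a median of -1.54. The stefins are not among the 65 genes of the complex. Sprr2b had 14.9, 72.6 and 99.7 CPM in the IMQ_GW3965 libraries, against 691, 493 and 295 CPM in the IMQ_Veh libraries (log2 fold change -2.99 ± 0.66, adjusted p = 0.0263). Sprr2k had 0.588, 2.18 and 0.608 CPM with GW3965 and 13.5, 5.51 and 6.61 CPM with vehicle (log2 fold change -2.90 ± 0.61, adjusted p = 0.0235), and Stfa2, a cysteine protease inhibitor, had 14.7, 30.7 and 35.5 CPM with GW3965 and 178, 98.2 and 128 CPM with vehicle (log2 fold change -2.33 ± 0.43, adjusted p = 0.0177). Sprr2a3, Sprr2d, Sprr1a, Stfa1 and Stfa2l1 fell by between 0.80 and 2.21. None of the 6 Lce3 genes on that list fell past the threshold (log2 fold changes -1.76 to -0.29). Sprr4 was the member that rose, with 3.53, 2.703 and 4.19 CPM with GW3965 and 0.778, 1.45 and 1.42 CPM with vehicle (log2 fold change 1.499 ± 0.27, adjusted p = 0.0142). Of 4 stress keratins, made by wounded or fast-dividing epidermis, 2 fell. Krt6a had 2242, 3094 and 2200.0 CPM in the IMQ_GW3965 libraries, against 9264, 6775 and 7087 CPM in the IMQ_Veh libraries (log2 fold change -1.62 ± 0.36, adjusted p = 0.0264), and Krt17 had 654, 1032 and 1195 CPM with GW3965 and 1828, 3179 and 1428 CPM with vehicle (log2 fold change -1.16 ± 0.31, adjusted p = 0.0485). Krt16 had 2433, 4122 and 3905 CPM with GW3965 and 10675, 7399 and 7654 CPM with vehicle (log2 fold change -1.298 ± 0.55, adjusted p = 0.16) and Krt6b a log2 fold change of -2.003 ± 0.94, neither past the threshold. The calls lost in the leave-out fits were those of Stfa2 and Sprr4 without GW1 or Veh1 (adjusted p up to 0.0786), Sprr2b without GW1, GW2 or Veh1 (adjusted p up to 0.0819), Sprr2k without GW1, GW3 or Veh1 (adjusted p up to 0.108), Sprr2d, Sprr1a, Stfa1 and Krt6a without GW1, GW2, GW3 or Veh1 (adjusted p up to 0.127), Stfa2l1 without GW1, GW2, Veh1 or Veh2 (adjusted p up to 0.119), and Sprr2a3 and Krt17 without GW1, GW2, GW3, Veh1 or Veh2 (adjusted p up to 0.175). Without GW2, the log2 fold change of Sprr2k was -3.82. Without GW3, the log2 fold change of Stfa2l1 was -3.06. The repair list had 14 lower members without Veh3, 0 without either GW1 or Veh1, 2 without GW2, 3 without GW3, 3 with the lane covariate and 1 in the 6 libraries alone. Sprr2, Stfa and Krt6 genes are near-identical copies between which RSEM could divide reads.

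**Figure D3:**
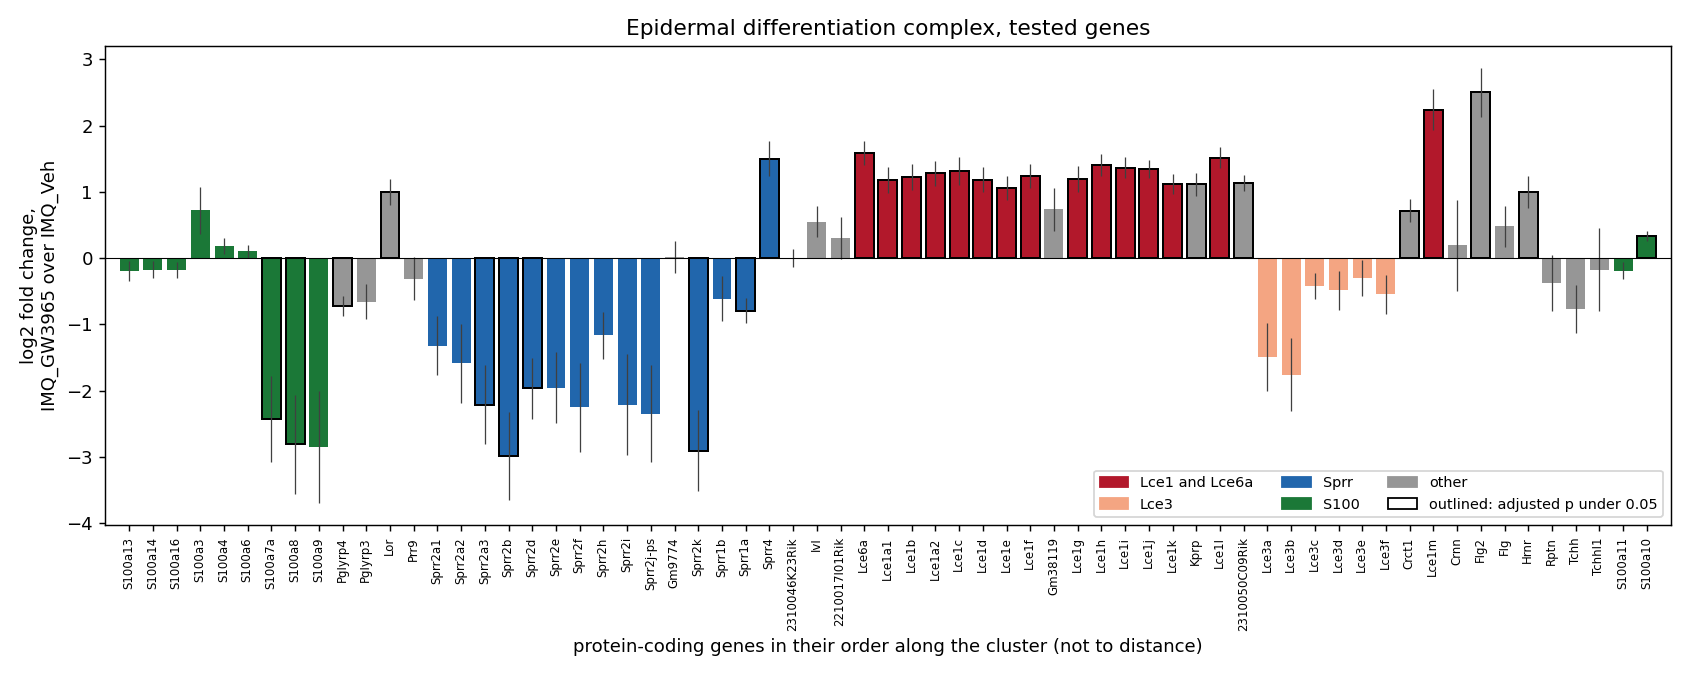
Log2 fold change ± SE of IMQ_GW3965 over IMQ_Veh (y axis) for the 65 tested protein-coding genes of the epidermal differentiation complex, in chromosomal order, coloured by family and outlined where the adjusted p was under 0.05. The Lce1 and Lce6a block is above 0 throughout, while S100a8, S100a9 and the Sprr2 genes lie below 0 and Sprr4 above it.

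Cell junctions divided by family member. Of 20 tested junction genes, 5 rose and 3 fell. Gjb5, a connexin of differentiated keratinocytes, had 83.3, 82.7 and 74.3 CPM in the IMQ_GW3965 libraries, against 35.4, 41.9 and 33.7 CPM in the IMQ_Veh libraries (log2 fold change 1.11 ± 0.14, adjusted p = 0.00417). The claudins Cldn4 and Cldn23, of tight junctions, rose by 0.47 and 0.99. The connexins Gjb2 and Gjb6, which are raised in psoriatic epidermis, fell by 1.34 and 1.11, and the desmosomal cadherin Dsc2 fell to 15.96 ± 5.28 CPM with GW3965, against 52.6 ± 14.6 CPM with vehicle (-1.72 ± 0.28). Of 21 desquamation proteases and inhibitors, 5 fell and 2 rose. Klk14, a kallikrein that sheds corneocytes, had 1.99, 5.30 and 5.00 CPM with GW3965 and 15.4, 22.9 and 20.3 CPM with vehicle (log2 fold change -2.27 ± 0.45, adjusted p = 0.0204). Klk13, Klk10 and Klk6 and the inhibitor Serpinb3c also fell, by 1.26, 0.90, 0.62 and 2.31, whereas Klk5, which activates other kallikreins, rose by 0.53 ± 0.12 and the channel-activating protease Prss8 by 0.54 ± 0.13. Among 25 acylceramide and barrier lipid enzymes 3 rose, the fatty acid transporter Slc27a4 (0.67 ± 0.12), the lipase Lipn (0.95 ± 0.19) and the ceramidase Acer1 (0.42 ± 0.10). Of 14 keratins and related genes of resting epidermis, 3 rose. Krt10, of suprabasal cells, had 19883, 22563 and 23062 CPM with GW3965 and 14863, 14594 and 14173 CPM with vehicle (log2 fold change 0.59 ± 0.13, adjusted p = 0.0268), with Krt80 and Krt15 at 0.42 ± 0.08 and 0.99 ± 0.27. Lost calls were those of Dsc2 without GW1 (adjusted p up to 0.0642), Lipn without GW1 or GW2 (adjusted p up to 0.0642), Klk14, Cldn4, Cldn23, Gjb2, Gjb6 and Slc27a4 without GW1 or Veh1 (adjusted p up to 0.0864), Klk13 and Krt80 without GW1, GW2 or Veh1 (adjusted p up to 0.0968), Klk10 without GW1, GW2, GW3 or Veh1 (adjusted p up to 0.123), Acer1 without GW1, GW2, GW3 or Veh2 (adjusted p up to 0.0968), and Klk6, Serpinb3c, Klk5, Prss8, Krt10 and Krt15 without GW1, GW2, GW3, Veh1 or Veh2 (adjusted p up to 0.176). That of Gjb5 held without any single library. Leaving out Veh3 gave 5 lower junction genes and 5 higher keratins of resting epidermis, and 1 barrier lipid enzyme fell without Veh2 or without Veh3. Of all genes, 12.6% rose and 8.78% fell without Veh3, and 1.99% fell without Veh2.

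Among the upstream cytokines of the psoriasis-like response, Il1b and Il17a fell and most others did not pass the threshold. Il1b (ENSMUSG00000027398, chr2:129364570-129371139), the inflammasome-processed cytokine, had 11.9, 12.1 and 24.7 CPM in the IMQ_GW3965 libraries, against 114, 107 and 138 CPM in the IMQ_Veh libraries (log2 fold change -2.90 ± 0.65, adjusted p = 0.0273), and UTX_Veh had 2.08, 0.334 and 0.684 CPM. Nlrp3, the sensor of that inflammasome, had 1.58, 1.25 and 2.30 CPM with GW3965 and 9.49, 11.9 and 10.02 CPM with vehicle (log2 fold change -2.63 ± 0.34, adjusted p = 0.00469). These were the 2 members that fell of 19 in the IL-1 and IL-36 list. The decoy receptor Il1r2 rose by 0.78 ± 0.19, and the IL-36γ gene Il1f9 (log2 fold change -0.28 ± 0.18, adjusted p = 0.356) overlapped between groups. In the IL-23 and IL-17 list, 2 of 21 fell and 1 rose, with a median of -0.86. Il17a, the effector cytokine, had 0.136, 0.156 and 0.203 CPM in the IMQ_GW3965 libraries, against 1.71, 3.42 and 0.577 CPM in the IMQ_Veh libraries (log2 fold change -3.54 ± 0.91, adjusted p = 0.0499), a fall on few reads that was just under the threshold. Its receptor subunit Il17ra had 30.1, 28.0 and 25.1 CPM with GW3965 and 43.4, 49.9 and 41.5 CPM with vehicle (log2 fold change -0.69 ± 0.10, adjusted p = 0.00644). Il17f had 0.136, 0.832 and 2.97 CPM with GW3965 and 6.90, 15 and 3.94 CPM with vehicle (log2 fold change -2.81 ± 0.98, adjusted p = 0.0982), Il23a had 0.226, 0.312 and 0.946 CPM with GW3965 and 1.297, 1.89 and 1.42 CPM with vehicle (log2 fold change -1.72 ± 0.59, adjusted p = 0.0945) and Il22 had 0.0452, 0.208 and 2.37 CPM with GW3965 and 3.53, 10.01 and 2.10 CPM with vehicle (log2 fold change -2.72 ± 1.01, adjusted p = 0.116), none past the threshold. In both Il17f and Il22, GW3 was the highest treated library, and in Il22 it lay above Veh3. Il17f passed without Veh3 (adjusted p = 0.0357), and Il22 without GW3 (adjusted p = 0.0459) or Veh3 (adjusted p = 0.0422). In the IL-20 family, 1 of 8 passed, the receptor subunit Il20rb, which rose by 0.56 ± 0.14.

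Of 22 antimicrobial and acute-phase proteins, which keratinocytes and neutrophils make, 4 fell and none rose (median -0.81). Defb4, a β-defensin, had 2.21, 1.82 and 3.92 CPM with GW3965 and 28.8, 17.5 and 11.4 CPM with vehicle (log2 fold change -2.88 ± 0.45, adjusted p = 0.00854). S100a8, a subunit of calprotectin, had 88.7, 473 and 697 CPM in the IMQ_GW3965 libraries, against 3359, 3542 and 1917 CPM in the IMQ_Veh libraries (log2 fold change -2.81 ± 0.75, adjusted p = 0.0472), with GW1 the lowest library. Its partner S100a9 had 154, 840.2 and 1264 CPM with GW3965 and 6091, 6439.6 and 3721 CPM with vehicle (log2 fold change -2.85 ± 0.84, adjusted p = 0.062), short of the threshold, which it passed under DESeq2 (adjusted p = 0.0114) and without Veh3 (adjusted p = 0.029). S100a7a and the peptidoglycan-binding Pglyrp4 fell by 2.43 and 0.72. For the cytokines and antimicrobial genes named so far, the calls lost with a library left out were Defb4 without GW1 (adjusted p up to 0.0619), Il1b without GW1, GW2, GW3 or Veh1 (adjusted p up to 0.123), and Il17a, Il1r2, Il20rb, S100a8, S100a7a and Pglyrp4 without GW1, GW2, GW3, Veh1 or Veh2 (adjusted p up to 0.176). Without Veh2, the log2 fold change of Il17a was -2.78. Those of Nlrp3 and Il17ra held without any single library. With Veh3 left out, 12.6% of all genes rose and 8.78% fell. In that fit 9 antimicrobial genes and 6 of the IL-23 and IL-17 list fell, and 4 of the IL-1 and IL-36 list fell and 3 rose. In the IL-20 family 1 member fell without Veh3, as 1 did without Veh2.

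Chemokines that recruit neutrophils and markers of neutrophils fell in part. Of 7 tested chemokines and receptors of neutrophil recruitment, 4 fell and none rose (median -2.14). Cxcl5 had 0.181, 2.18 and 0.676 CPM in the IMQ_GW3965 libraries, against 7.16, 11.9 and 21.5 CPM in the IMQ_Veh libraries (log2 fold change -3.73 ± 0.82, adjusted p = 0.0254). Cxcl2 had 5.11, 3.33 and 14.3 CPM with GW3965 and 57.5, 51.4 and 40.7 CPM with vehicle (log2 fold change -2.74 ± 0.68, adjusted p = 0.0375), and Cxcl3 had 1.63, 0.936 and 3.18 CPM with GW3965 and 12.3, 18.8 and 10.8 CPM with vehicle (log2 fold change -2.90 ± 0.60, adjusted p = 0.0225). These are ligands of the neutrophil receptor CXCR2, as is the product of Ppbp, which fell by 2.14. Of 18 tested neutrophil markers, 9 fell and none rose (median -1.64). Csf3r, the receptor for the neutrophil growth factor G-CSF, had 4.79, 10.7 and 8.11 CPM in the IMQ_GW3965 libraries, against 39.5, 31.7 and 38.5 CPM in the IMQ_Veh libraries (log2 fold change -2.22 ± 0.32, adjusted p = 0.00644). Slfn4, a myeloid schlafen gene, had 1.85, 2.81 and 4.19 CPM with GW3965 and 17.8, 14.8 and 33.0 CPM with vehicle (log2 fold change -2.91 ± 0.41, adjusted p = 0.006), and the C-type lectin Clec4d had 4.29, 5.56 and 6.35 CPM with GW3965 and 15.1, 13.7 and 15.7 CPM with vehicle (log2 fold change -1.46 ± 0.20, adjusted p = 0.006). Hdc, which makes histamine and is also expressed in mast cells, fell by 1.33, and Acod1, which makes itaconate, by 3.53. S100a8, Clec4e and Trem1 also fell, at -2.81 to -1.96. The whole marker list summed to 0.0264, 0.0662 and 0.0788% of counts in the IMQ_GW3965 libraries and 0.344, 0.382 and 0.226% in the IMQ_Veh libraries, with no overlap, and to between 0.0112% and 0.0129% in UTX_Veh. S100a8, also on the antimicrobial list, made up most of the IMQ_Veh sums, which were 3445, 3818 and 2262 unscaled CPM. The sum therefore follows S100a8 more than the other markers. Among defining markers, the granule protease gene Elane had 0 counts in all 6 libraries and Ly6g had 0, 0 and 5 counts with GW3965 and 2, 6 and 6 with vehicle. In bulk skin, fewer neutrophils and less RNA per neutrophil cannot be told apart, which holds for every cell type below and for Il1b, Nlrp3, S100a8 and the chemokines that neutrophils also express, whose share from neutrophils was not tested. Calls were lost for Cxcl3, Acod1, Clec4e and Trem1 without GW1, GW2 or Veh1 (adjusted p up to 0.113), Cxcl5 without GW1, GW3 or Veh1 (adjusted p up to 0.106), Ppbp without GW1, GW2, GW3 or Veh1 (adjusted p up to 0.117), and Cxcl2 without GW1, GW2, Veh1 or Veh2 (adjusted p up to 0.153). Without GW2, the log2 fold change of Cxcl5 was -5.08. Without GW3, the log2 fold changes of Cxcl2 and Acod1 were -3.55 and -4.30. The number of neutrophil markers that fell was 4 without GW1, without GW2 or without Veh1, and 7 with the lane covariate.

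**Figure D4:**
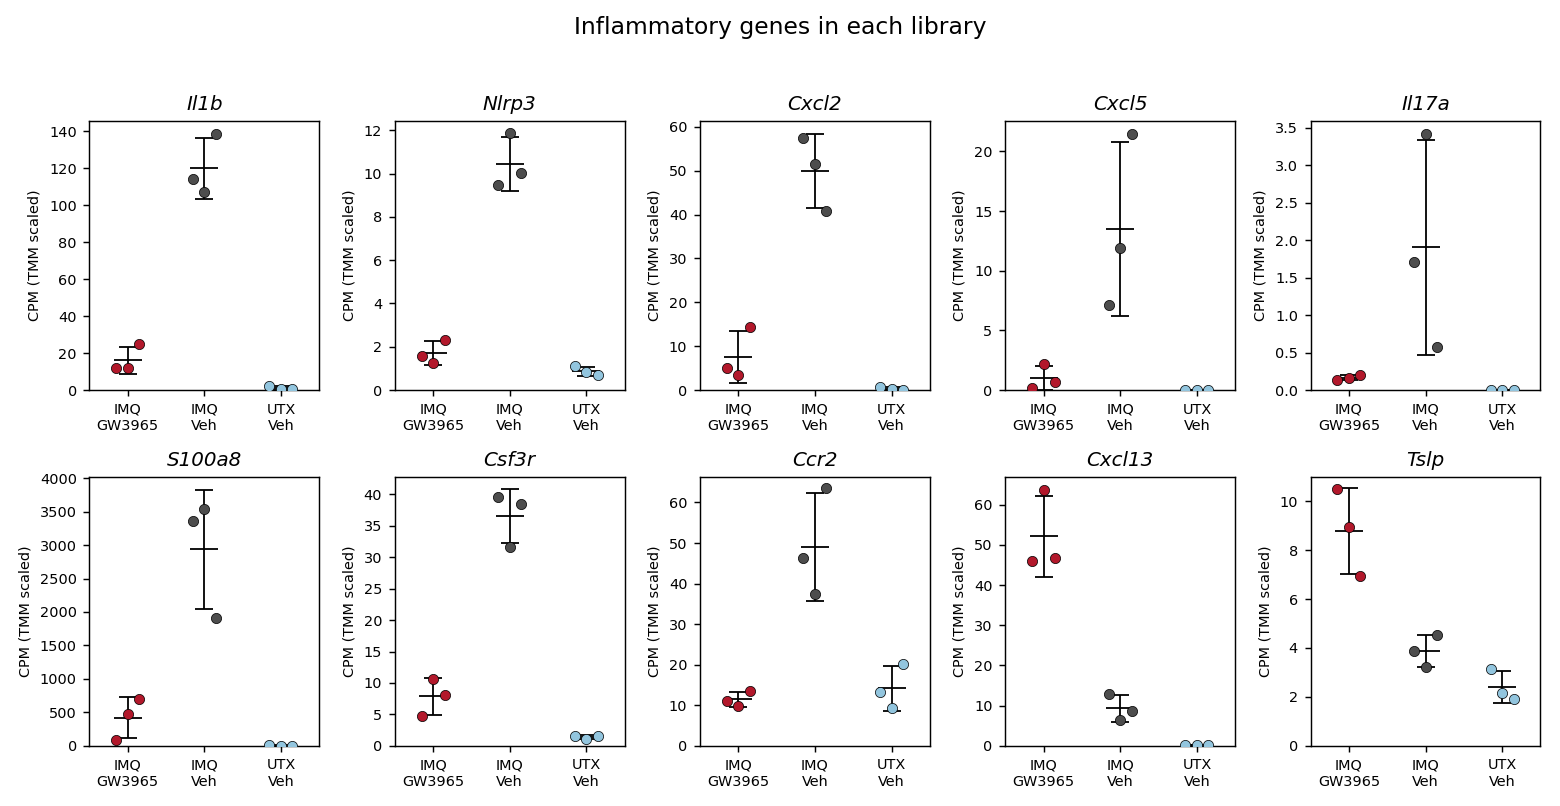
TMM-scaled CPM of 10 inflammatory genes in each library (points) with the mean and SD of each group (bars), for IMQ_GW3965, IMQ_Veh and UTX_Veh, each axis starting at 0. Treated points of 8 of the genes lie below the vehicle points, and those of Cxcl13 and Tslp lie above them.

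Monocyte and macrophage genes fell in part. Ccr2, the receptor that brings monocytes out of the marrow, had 11.1, 9.77 and 13.4 CPM in the IMQ_GW3965 libraries, against 46.4, 37.4 and 63.6 CPM in the IMQ_Veh libraries (log2 fold change -2.10 ± 0.29, adjusted p = 0.006), close to the 13.3, 9.20 and 20.2 CPM of UTX_Veh. Ccr1, a chemokine receptor of myeloid cells, had 1.99, 5.51 and 3.92 CPM with GW3965 and 18.7, 16.2 and 21.1 CPM with vehicle (log2 fold change -2.30 ± 0.38, adjusted p = 0.0101), and its ligand Ccl3 had 1.99, 0.780 and 1.69 CPM with GW3965 and 9.49, 4.95 and 9.498 CPM with vehicle (log2 fold change -2.41 ± 0.49, adjusted p = 0.0211). These were the 3 members that fell of 21 CC chemokines and receptors, where none rose. Of 25 monocyte and macrophage markers, 3 fell: Ccr2, the lipopolysaccharide co-receptor Cd14 (-1.51 ± 0.24) and the lectin Clec4n (-1.24 ± 0.33). The resident macrophage genes C1qa, C1qb and Adgre1 had log2 fold changes of 0.52, 0.43 and 0.58, none past the threshold. The list summed to 0.102, 0.127 and 0.110% of counts in the IMQ_GW3965 libraries and 0.112, 0.0734 and 0.156% in the IMQ_Veh libraries, with overlapping groups. Of 15 genes of alternatively activated macrophages, Arg1 fell (12.2, 18.7 and 22.6 CPM with GW3965 and 96.5, 19.7 and 104 CPM with vehicle; log2 fold change -2.04 ± 0.54, adjusted p = 0.0449), with Veh2 inside the treated range. Retnla had 0.904, 0.208 and 0.338 CPM with GW3965 and 0.311, 0 and 0.630 CPM with vehicle (log2 fold change 0.76 ± 0.97, adjusted p = 0.665). Among 19 dendritic and Langerhans cell markers, the Langerhans cell lectin Cd207 rose (9.72, 12.5 and 12.8 CPM with GW3965 and 7.47, 6.80 and 7.35 CPM with vehicle; log2 fold change 0.70 ± 0.14, adjusted p = 0.0216), while the costimulatory Cd80 and Ciita, the regulator of MHC class II genes, fell by 0.90 and 1.11. None of 24 T cell and innate lymphocyte markers, 3 B cell markers or 31 interferon-stimulated genes passed by edgeR, where 2, 0 and 1 of them had an unadjusted p under 0.05. The interferon list had a median of -0.62. By DESeq2, 1 interferon-stimulated gene passed and 0 of the T or B cell markers. Other calls appeared when a vehicle library was left out. Without Veh3, 5 monocyte and macrophage markers, 2 CC chemokine genes and 1 interferon-stimulated gene rose, where 12.6% of all genes did. Without Veh2, 1 interferon-stimulated gene and 3 genes of alternatively activated macrophages fell, where 1.99% of all genes did.

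Against the lower myeloid genes, the B cell chemoattractant Cxcl13 rose. It had 45.9, 63.8 and 46.6 CPM in the IMQ_GW3965 libraries, against 12.97, 6.35 and 8.76 CPM in the IMQ_Veh libraries (log2 fold change 2.48 ± 0.28, adjusted p = 0.00242), beside 0.0786, 0.209 and 0.256 CPM in UTX_Veh. In the list of type 2 cytokines and receptors, 1 of 14 rose and 1 fell. Tslp, the epithelial cytokine that starts type 2 responses, had 10.49, 8.94 and 6.96 CPM in the IMQ_GW3965 libraries, against 3.89, 3.22 and 4.51 CPM in the IMQ_Veh libraries (log2 fold change 1.19 ± 0.23, adjusted p = 0.0182). Osmr, a shared receptor subunit for oncostatin M and IL-31, fell by 0.77. Osm, the gene of oncostatin M, fell to 1.68 ± 0.844 CPM with GW3965, against 10.51 ± 0.878 CPM with vehicle (-2.68 ± 0.55). Il4ra had 53.5, 126 and 76.0 CPM with GW3965 and 113, 147 and 164 CPM with vehicle (log2 fold change -0.74 ± 0.29, adjusted p = 0.137). Il4 and Il13 lay below the filter on low counts: Il13 had 0, 2 and 3 counts with GW3965 and 7, 13 and 6 with vehicle, and Il4 had 4, 1 and 2 counts with GW3965 and 0, 3 and 0 with vehicle. Of 13 mast cell, basophil and eosinophil markers, 1 rose, Ms4a2, the β chain of the IgE receptor (0.98 ± 0.23). Without Veh3, 7 of the 13 rose, and with any one of the other 5 libraries left out none did; 2 type 2 genes fell without Veh3. For the myeloid, lymphoid and type 2 genes, a library left out ended the calls of Cd14 without GW1 (adjusted p up to 0.0587), Tslp without GW1 or Veh1 (adjusted p up to 0.0828), Ciita and Osm without GW1, GW2 or Veh1 (adjusted p up to 0.143), Cd207 without GW2, GW3 or Veh1 (adjusted p up to 0.0699), Ccl3, Cd80 and Arg1 without GW1, GW2, GW3 or Veh1 (adjusted p up to 0.17), Osmr and Ms4a2 without GW1, GW2, GW3, Veh1 or Veh2 (adjusted p up to 0.165), and Clec4n without GW1, GW2, GW3, Veh1 or Veh3 (adjusted p up to 0.168). Those of Ccr1, Ccr2 and Cxcl13 held without any single library.

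Some growth factors and genes of dividing cells fell. Of 13 EGF receptor genes and ligands, Hbegf and Tgfa fell. Hbegf had 40.8, 43.0 and 47.8 CPM in the IMQ_GW3965 libraries, against 98.7, 99.2 and 98.5 CPM in the IMQ_Veh libraries (log2 fold change -1.17 ± 0.21, adjusted p = 0.0155), and Tgfa had 47.9, 71.9 and 69.7 CPM with GW3965 and 107, 126 and 95.1 CPM with vehicle (log2 fold change -0.79 ± 0.18, adjusted p = 0.0286). Areg had 4.79, 6.81 and 9.12 CPM with GW3965 and 14.9, 9.81 and 18.2 CPM with vehicle (log2 fold change -1.05 ± 0.36, adjusted p = 0.094). Of 30 cell cycle genes, 6 fell and none rose, and all 30 had negative log2 fold changes (median -0.49). Cenpe, a kinesin of the mitotic kinetochore, had 24.3, 30.9 and 30.1 CPM with GW3965 and 57.3, 48.2 and 40.2 CPM with vehicle (log2 fold change -0.77 ± 0.14, adjusted p = 0.0165), and Cenpa, Tpx2, Birc5, Rrm2 and Bub1b were at -0.71 to -0.53. The number of cell cycle genes that fell was 22 without Veh3, 2 without GW2 or without Veh2, 1 without GW3, 0 without GW1 or Veh1, and 3 with the lane covariate. Of 21 hypoxia and glycolysis genes, 3 fell: the glucose transporter Slc2a1 (-0.70 ± 0.15) and the glycolytic enzymes Pgk1 (-0.49 ± 0.12) and Pgam1 (-0.51 ± 0.13). In prostaglandin metabolism, 4 of 20 rose and 2 fell. Ptgs2, the inducible cyclooxygenase, had 14.9, 10.3 and 11.3 CPM with GW3965 and 42.0, 29.3 and 65.9 CPM with vehicle (log2 fold change -1.90 ± 0.35, adjusted p = 0.0163), and the phospholipase Pla2g4d fell by 1.79. The constitutive cyclooxygenase Ptgs1 (0.50 ± 0.10), the epidermal phospholipase Pla2g2f (0.75 ± 0.13), the prostaglandin-degrading Hpgd (0.56 ± 0.12) and prostacyclin synthase Ptgis (1.24) rose. The matrix protease genes Mmp3 and Mmp25 and the inhibitor Timp1 fell by 1.28, 1.19 and 1.66, while the inhibitor Timp3 rose by 1.29 ± 0.32, 1 rise and 3 falls among 14 genes of that list. Of 20 immediate early and heat shock genes, Fosl2, an AP-1 subunit, fell by 0.50 and the chaperone genes Hspa1a and Hspb1 rose by 0.57 and 0.89. Of 19 clock genes, Nfil3 fell by 0.54 and 1 other member rose. With single libraries left out, calls ended for Pla2g2f without GW1 (adjusted p up to 0.0572), Hspa1a without Veh1 (adjusted p up to 0.0503), Ptgs2 without GW1 or GW2 (adjusted p up to 0.0619), Hbegf and Cenpe without GW1 or Veh1 (adjusted p up to 0.0792), Slc2a1, Ptgs1 and Hspb1 without GW1, GW2 or Veh1 (adjusted p up to 0.106), Cenpa and Pla2g4d without GW1, GW3 or Veh1 (adjusted p up to 0.124), Pgk1, Timp1, Hpgd and Nfil3 without GW1, GW2, GW3 or Veh1 (adjusted p up to 0.152), Ptgis without GW1, GW2, Veh1 or Veh2 (adjusted p up to 0.151), Tgfa and Mmp3 without GW1, GW3, Veh1 or Veh2 (adjusted p up to 0.16), and Tpx2, Birc5, Rrm2, Bub1b, Pgam1, Mmp25 and Timp3 without GW1, GW2, GW3, Veh1 or Veh2 (adjusted p up to 0.182). That of Fosl2 held without any single library. With Veh3 left out, 12.6% of all genes rose and 8.78% fell. In that fit the falls numbered 6 in the hypoxia, 4 in the prostaglandin and 2 in the heat shock list. The rises numbered 3 in the EGF receptor, 3 in the matrix protease, 4 in the clock and 1 in the hypoxia list.

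Some genes of the deeper ear tissues rose with GW3965, and Veh3 was set apart from the other vehicle libraries. Of 23 skeletal muscle markers, 8 rose and none fell (median 1.41). Tcap, a titin-binding protein of muscle, had 368, 260.5 and 223 CPM in the IMQ_GW3965 libraries, against 25.4, 52.7 and 115 CPM in the IMQ_Veh libraries (log2 fold change 2.14 ± 0.45, adjusted p = 0.0234), and Actn3, of fast fibres, had 95.8, 68.4 and 62.3 CPM with GW3965 and 8.30, 9.65 and 36.0 CPM with vehicle (log2 fold change 2.08 ± 0.45, adjusted p = 0.0249). The other 6 were Tnnc1, Pvalb, Mb, Tnni1, Tnni2 and Tnnt1, at 1.34 to 1.98. Without Veh3 all 23 rose, 2 did without GW3 or with the lane covariate, 1 without Veh2, and none without GW1, GW2 or Veh1. Of 17 cartilage markers, Cytl1 and Chad rose, and the list median was -0.03. Cytl1, a secreted cartilage protein, had 1946, 1078 and 1362 CPM with GW3965 and 206, 390.3 and 546 CPM with vehicle (log2 fold change 1.94 ± 0.38, adjusted p = 0.019), and cartilage markers summed to 0.288, 0.166 and 0.171% of counts in the IMQ_GW3965 libraries and 0.0450, 0.0754 and 0.137% in the IMQ_Veh libraries. Cytl1 made up most of the IMQ_GW3965 sums, which were 2882, 1660 and 1708 unscaled CPM, so they do not show a rise of the list as a whole. Of 17 adipocyte markers, 2 rose. Without Veh3, 13 adipocyte, 8 cartilage, 6 fibroblast and 6 endothelial markers rose, where 12.6% of all genes did. Without Veh2, 2 fibroblast markers fell, where 1.99% of all genes did. None of 20 fibroblast and collagen markers passed by edgeR, and 3 had an unadjusted p under 0.05; Col3a1 had 456, 1008 and 847 CPM with GW3965 and 1770.0, 494 and 3924 CPM with vehicle (log2 fold change -1.42 ± 0.58, adjusted p = 0.148; 0.0347 without Veh2), and Dcn had 1254, 939 and 1152 CPM with GW3965 and 632, 544 and 1091 CPM with vehicle (log2 fold change 0.56 ± 0.23, adjusted p = 0.142; 0.00253 without Veh3). None of 17 endothelial markers passed, and 3 had an unadjusted p under 0.05; Pecam1 had 63.6, 56.4 and 62.8 CPM with GW3965 and 48.8, 22.7 and 84.9 CPM with vehicle (log2 fold change 0.23 ± 0.33, adjusted p = 0.711; 0.047 without Veh3). By DESeq2, 2 endothelial and no fibroblast markers passed. None of the 8 tested hair follicle keratins and 5 erythrocyte genes passed with either tool, and 1 and 0 had an unadjusted p under 0.05. The calls lost in the leave-out fits were those of Cytl1 without GW1 or Veh1 (adjusted p up to 0.0819), Tnni1 without GW1, GW2, GW3 or Veh1 (adjusted p up to 0.147), Tcap, Actn3, Pnpla2 and Col17a1 without GW1, GW2, Veh1 or Veh2 (adjusted p up to 0.123), and Tnnc1, Pvalb, Mb, Tnni2, Tnnt1, Chad and Sult1a1 without GW1, GW2, GW3, Veh1 or Veh2 (adjusted p up to 0.161), Col17a1 being a keratinocyte adhesion gene (0.52 ± 0.12) that rose with Krt10 as the 2 calls among 11 keratinocyte markers. Without Veh3, the log2 fold changes of Tcap, Actn3, Pvalb, Tnni2 and Chad were 2.86, 3.07, 3.02, 2.44 and 2.36. How far the makeup of the tissue sampled enters any gene named above was not tested.

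**Figure D5:**
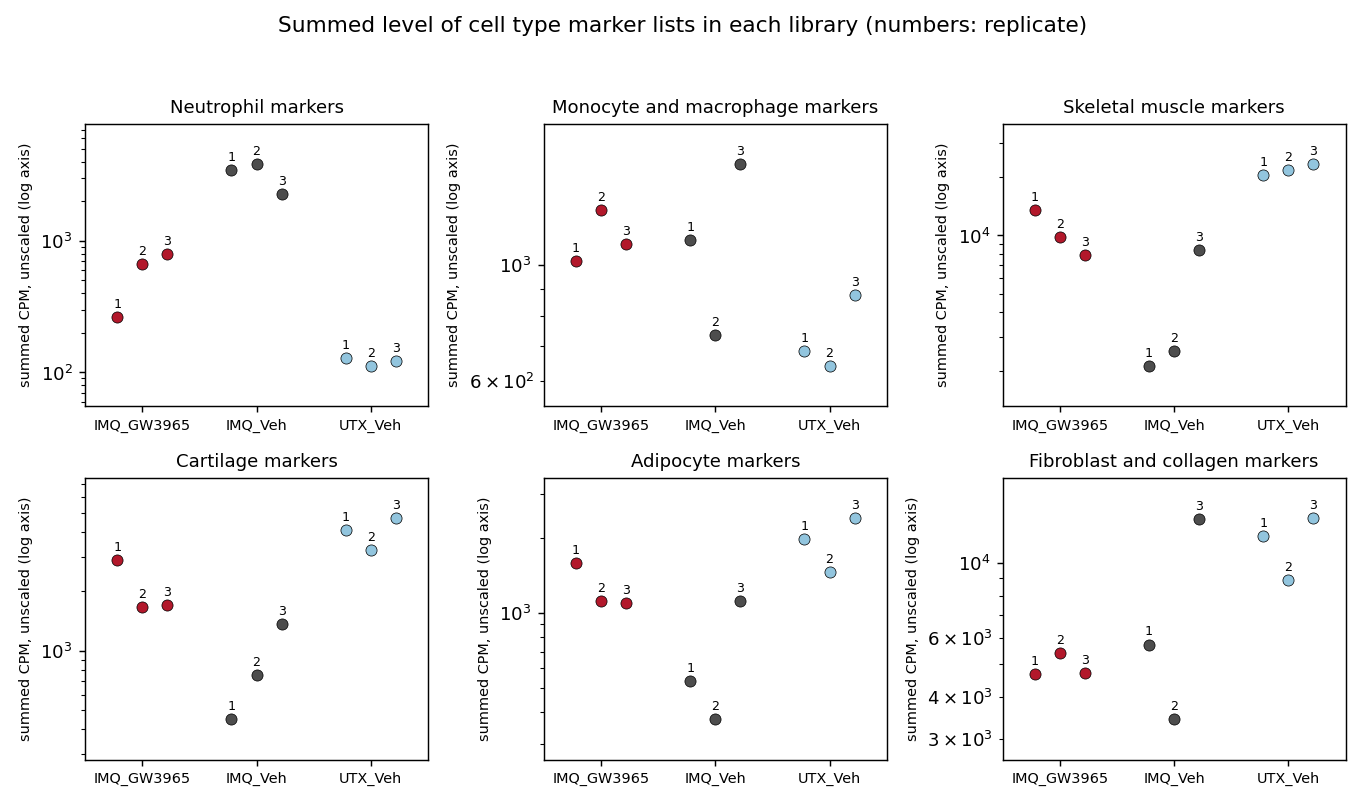
Summed unscaled CPM of 6 lists of cell type markers in each library, on log axes, for IMQ_GW3965, IMQ_Veh and UTX_Veh, with the replicate number above each point. Neutrophil markers separate IMQ_GW3965 from IMQ_Veh, while Veh3 (the IMQ_Veh point numbered 3) lies at or near the treated libraries for muscle, cartilage and adipocyte markers and above them for fibroblast markers. S100a8 makes up most of the neutrophil sum in IMQ_Veh, and Cytl1 most of the cartilage sum in IMQ_GW3965.

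Among the 15 largest rises and 15 largest falls, several genes belonged to no list. Fmo2, a flavin monooxygenase, had 71.7, 52.2 and 40.2 CPM in the IMQ_GW3965 libraries, against 5.71, 11.8 and 9.71 CPM in the IMQ_Veh libraries (log2 fold change 2.59 ± 0.40, adjusted p = 0.00848), and Galnt15, a glycosyltransferase, had 243, 149.7 and 88.1 CPM with GW3965 and 15.5, 32.4 and 31.4 CPM with vehicle (log2 fold change 2.60 ± 0.53, adjusted p = 0.0214). Nell2, a secreted glycoprotein, had 5.24, 5.56 and 4.26 CPM with GW3965 and 0.208, 1.05 and 0.945 CPM with vehicle (log2 fold change 2.74 ± 0.45, adjusted p = 0.0107). Inmt, a methyltransferase, Msmp, Timp4, a metalloproteinase inhibitor, Tmem233, Cldn2, Lrrc30 and Tmem52 rose by 2.15 to 2.66, as did Myod1, the master regulator of muscle (2.32 ± 0.41). Of the falls, Cd300lf, an inhibitory receptor of myeloid cells, had 0.497, 1.299 and 2.23 CPM in the IMQ_GW3965 libraries, against 11.6, 13.8 and 11.9 CPM in the IMQ_Veh libraries (log2 fold change -3.26 ± 0.42, adjusted p = 0.00469). Cntn2, a neural adhesion molecule, had 0.181, 0.468 and 0.946 CPM with GW3965 and 5.91, 7.76 and 3.04 CPM with vehicle (log2 fold change -3.47 ± 0.79, adjusted p = 0.0289), and Draxin, an axon guidance protein, fell by 2.95 on few reads. Lost calls were those of Galnt15, Timp4, Tmem233, Myod1, Lrrc30 and Tmem52 without GW1 or Veh1 (adjusted p up to 0.0916), Inmt, Cldn2 and Draxin without GW1, GW2, GW3 or Veh1 (adjusted p up to 0.136), Msmp without GW1, GW3, Veh1 or Veh2 (adjusted p up to 0.114), and Cntn2 without GW1, GW2, GW3, Veh1 or Veh2 (adjusted p up to 0.129). Those of Nell2, Fmo2 and Cd300lf held without any single library. Without GW3, the log2 fold change of Cntn2 was -4.11. Without Veh3, the log2 fold changes of Msmp, Inmt, Tmem233, Lrrc30 and Tmem52 were 3.63, 3.52, 3.10, 2.93 and 2.94. Predicted or unnamed gene models made up 96 of the 1129 calls and were not named.

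Of the 126 calls of genes picked by the naming rule, the 33 that held in the fit of the 6 libraries alone were those of Apod, Apoe, Mylip, Srebf1, Elovl6 and Scd3 among the lipid genes, Lce1h, Lce1j, Lce1l, Lce1m, Lce6a, Gjb5, Klk10, Krt6a and Stfa2 in the epidermis, Il1b, Nlrp3, Cxcl3, Cxcl13, Ccr1, Ccr2, Cd14, Cd300lf, Csf3r, Clec4d, Slfn4, Acod1, Hdc, Defb4, Osm and Hbegf among immune and growth genes, and Fmo2 and Timp4. Of the genes described above as list members outside that rule, Trem1, Clec4e and the remaining Lce1 genes other than Lce1e also held there. With lane as a covariate, 43 of the 126 calls were lost, among lipid, epidermal and cytokine genes those of Fasn, Lpcat3, Osbpl1a, Ephx1, Cyp7b1, Acadm, Mc5r, Acer1, Krt10, Krt15, Krt6a, Krt17, Klk5, Il1b, Il1r2, Il17a, Il20rb, S100a8, S100a7a and Cxcl2. Among the remaining lists and the largest changes they were Osmr, Arg1, Clec4n, Cd80, Ciita, Ms4a2, Tgfa, Tpx2, Pgk1, Pgam1, Mmp3, Mmp25, Timp1, Timp3, Nfil3, Tnnc1, Pvalb, Chad, Sult1a1, Col17a1, Inmt, Cntn2 and Draxin. Among list members outside the rule, the lane covariate ended the calls of Acaca, Pnpla3, Fabp5, Krt79, Hrnr, Cdsn, Tgm3, Dmkn, Sprr1a, Sprr2a3, Sprr2d, Stfa1, Stfa2l1, Klk6, Prss8, Ptgis, Bub1b, Rrm2, Tnnt1, Tnni1, Tnni2 and Mb (adjusted p between 0.0505 and 0.0924), while all 15 calls of Lce1 and Lce6a genes held.

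Whether a change differed from that under the other nuclear receptor agonist was tested by setting IMQ_GW3965 directly against IMQ_Troglitazone, since both drugs share the IMQ_Veh libraries. Of 17130 genes, 319 passed (1.86%), 185 higher (1.08%) and 134 lower (0.782%) with GW3965. The count was 0 without GW1, without GW3, and without troglitazone replicate 2 or 3, where 2409, 1975, 2014 and 2608 genes, in that order, had an unadjusted p under 0.05. By DESeq2 on all libraries, 960 genes passed. Among the named genes, Scd3 had 93.9, 80.5 and 48.6 CPM with GW3965 and 8.30, 5.72 and 8.37 CPM with troglitazone (log2 difference 3.31 ± 0.65, adjusted p = 0.0361). Srebf1 had 308 ± 41.4 CPM with GW3965 and 194 ± 23.5 CPM with troglitazone (log2 difference 0.66 ± 0.14, adjusted p = 0.0436), and Elovl5, Apoe and Acsl5 were higher by 0.84 ± 0.10, 0.50 ± 0.11 and 0.38 ± 0.08 (adjusted p = 0.0234, 0.0492 and 0.0412). The remaining call among named genes was the hemoglobin gene Hbb-bs, higher with GW3965 by 1.39 ± 0.30 (adjusted p = 0.0432). The interval of a difference short of the threshold is wide: for Flg2 it was -0.30 ± 0.35 and for Il1b 0.56 ± 0.64, so no likeness of the drugs follows for those genes. The doses differed, at 20 mg/kg of GW3965 and 150 mg/kg of troglitazone, and the compounds are not structural analogs.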

How the data were processed

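Poly(A) RNA of mouse ear skin was measured by stranded TruSeq mRNA sequencing in 12 libraries, of which the 3 IMQ_GW3965 and 3 IMQ_Veh libraries are compared here. Reads were trimmed, aligned to GRCm38 with STAR 2.7.3a and quantified with RSEM 1.3.3, per the submitters' processing notes; for the annotation release and the strand setting, the sources used here give nothing. Per the file headers, the authors deposited an expected count and a TPM of each of 55416 gene identifiers in each library; an expected count is RSEM's estimate, which divides reads shared by similar genes, and TPM values were not tested. Of the identifiers, 52083 were named from GENCODE M21. Without a known strand setting, reads of a gene and its antisense partner cannot be told apart.

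Expected counts were rounded and filtered with edgeR's filterByExpr, leaving 17130 genes. One edgeR 4.0.16 quasi-likelihood model (R 4.3.3, TMM scaling) was fitted to all 12 libraries with the 4 groups as terms, and p-values were adjusted by the Benjamini-Hochberg method, with a call at an adjusted p under 0.05. On simulated counts with 200 changed genes, 76% of 2-fold and 100% of 4-fold changes were recovered, with 5 false calls. The changed genes were drawn from those with more reads, and all groups were given the same spread. The rates therefore do not cover genes of few reads or groups that vary unequally. Named genes were the 15 largest called changes in each direction, with at least 1 CPM and groups that do not overlap, the up to 4 called members of lowest adjusted p of each of 46 gene lists (or the 2 most abundant where none was called), and a fixed set of LXR, envelope and cytokine genes; a few further list members are given by their fold change. The members and lists were chosen with earlier results of these data known. A few genes that the rule names are not reported here. Lists are described by counts and medians and were not tested. Library totals ran between 18242074 and 25641602 expected counts. No label states a pairing, so replicate numbers were not used as pairs. The deviations of same-numbered libraries cannot show whether they were paired. Alternatives were other scalings, DESeq2 1.42.0, limma-voom 3.58.1, other filters, the compared groups alone, a replicate block, the lane field, genes left out and each library left out.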

Additional observations from a re-analysis of the deposited data

How the results depend on the processing

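The 1129 calls for GW3965 against vehicle numbered 1149 under RLE and 1142 under upper-quartile scaling, 1508 by limma-voom, 1480 with no filter on low counts, 1183 with a minimum of 1 CPM in 3 libraries, 1135 without ENSMUSG00000119584 and 1137 without hemoglobin, muscle and mitochondrial genes. They numbered 2222 by DESeq2, 549 with the lane covariate, 110 in the 6 libraries alone, 105 to 3660 with a single library left out and 3057 without replicate 3 of both groups. For GW3965 against troglitazone, the 319 calls became 960 by DESeq2, 140 with no filter, 9 in the compared groups alone and 0 to 109 with a library left out. An arm left with 2 libraries is assumed to vary like the other groups. Same-numbered libraries correlated in their deviations from the group means at -0.16 (number 1), 0.04 (number 2) and -0.00012 (number 3). These values cannot show whether same-numbered libraries were paired or shared a batch, and no label states it. With the replicate block, 1426 genes were called against vehicle and 131 against troglitazone. None of the 1129 called genes changed sign in any of the 18 alternatives, which the lack of overlap between the groups makes nearly certain. Log2 fold changes that turned sign were all of genes not called, and the cause was not tested. Rxra (reported -0.022) was at -0.055 to 0.017 with libraries left out and Ncor1 (reported -0.055) was at -0.11 to 0.011 with libraries left out. Ighm (reported 0.046) was at -0.32 to 0.64 with libraries left out and Cd79b (reported 0.011) was at -0.0032 with RLE scaling, -0.0046 by DESeq2 and -0.22 to 0.59 with libraries left out. Pecam1 (reported 0.23) was at -0.13 to 0.77 with libraries left out and Eng (reported -0.035) was at 0.13 by limma-voom, 0.041 with the replicate block, 0.18 with the lane covariate and -0.34 to 0.46 with libraries left out. Krt84 (reported 0.32) was at -0.042 to 0.57 with libraries left out and Hbb-bs (reported 0.17) was at -0.15 to 0.43 with libraries left out. Hba-a2 (reported 0.045) was at -0.28 to 0.33 with libraries left out and Retnla (reported 0.76) was at -0.14 to 2.004 with libraries left out. Depth limits genes of few reads, such as Il17a, Cxcl5 and Draxin.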

Other observations

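Several gene families outside the lists moved with GW3965; they were picked after their values were seen, so none of the counts is a test. Of 11 tested Skint genes, which encode butyrophilin-like proteins of keratinocytes and include the selecting element of epidermal γδ T cells (Skint1, in mouse), 6 rose and none fell (median 0.65). Skint5 had 17.99, 15.8 and 18.1 CPM with GW3965 and 6.85, 8.32 and 7.56 CPM with vehicle (log2 fold change 1.19 ± 0.13, adjusted p = 0.00227), and Skint1, Skint4, Skint6, Skint9 and Skint10 rose by 0.62 to 1.17. Of 7 Gstm genes, glutathione transferases, 3 rose, led by Gstm1 with 149, 111 and 127 CPM with GW3965 and 63.3, 57.7 and 72.0 CPM with vehicle (log2 fold change 1.002 ± 0.14, adjusted p = 0.00632), beside Gstm2 and Gstm5 at 0.62 and 0.60. Of 5 alcohol dehydrogenase genes, 3 rose: Adh1 (1.68 ± 0.29), Adh6b (1.504 ± 0.40) and Adh7 (0.92 ± 0.21), which oxidises retinol. Of 14 Wnt ligand genes, 4 rose, Wnt3 (0.81 ± 0.13), Wnt7b, Wnt9a and Wnt10a, by 0.51 to 1.14. Calls ended for Wnt7b without GW1 (adjusted p up to 0.065), Skint4, Adh1 and Wnt9a without GW1 or Veh1 (adjusted p up to 0.0844), Skint9, Skint10 and Gstm5 without GW1, GW3 or Veh1 (adjusted p up to 0.106), Wnt10a without GW2, Veh1 or Veh2 (adjusted p up to 0.072), Adh6b and Adh7 without GW1, GW2, GW3 or Veh1 (adjusted p up to 0.161), and Skint1 and Skint6 without GW1, GW2, GW3, Veh1 or Veh2 (adjusted p up to 0.13), while those of Skint5, Gstm1, Gstm2 and Wnt3 held without any single library.

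Single genes, also chosen after their values were seen, moved in both directions. Bmp2, a growth factor of hair and bone, had 34.4, 27.8 and 19.4 CPM with GW3965 and 7.57, 9.61 and 7.35 CPM with vehicle (log2 fold change 1.73 ± 0.22, adjusted p = 0.00417), and Jag1, a Notch ligand, had 45.1, 49.6 and 46.7 CPM with GW3965 and 78.8, 94.7 and 72.3 CPM with vehicle (log2 fold change -0.80 ± 0.10, adjusted p = 0.00417). Mt4, the metallothionein of squamous epithelia, had 91.3, 78.3 and 57.1 CPM with GW3965 and 21.9, 14.0 and 16.7 CPM with vehicle (log2 fold change 2.11 ± 0.29, adjusted p = 0.006). Cdkn1c, an inhibitor of cyclin-dependent kinases, rose by 1.75 ± 0.26 and the small heat shock gene Hspb8 by 0.84 ± 0.09. Lilr4b, an inhibitory receptor of myeloid cells, fell to 28.2 ± 5.87 CPM with GW3965, against 83.9 ± 17.1 CPM with vehicle (-1.58 ± 0.21; SD, n = 3 each). These 6 calls held without any single library. In the 6 libraries alone, calls held for Skint4, Skint5, Gstm1, Bmp2, Jag1, Mt4, Hspb8 and Lilr4b of the genes in this section, and the lane covariate ended those of Skint1, Adh6b and Adh7. Il19 and Il24, cytokines of the IL-20 family, had large differences short of the threshold, Il19 with 0.0904, 5.92 and 3.45 CPM with GW3965 and 23.2, 56.3 and 32.3 CPM with vehicle (log2 fold change -3.59 ± 1.07, adjusted p = 0.0649) and Il24 with 0.181, 0.884 and 0.135 CPM with GW3965 and 1.45, 3.30 and 7.71 CPM with vehicle (log2 fold change -3.33 ± 0.91, adjusted p = 0.0501). Soat2, the cholesterol-esterifying enzyme of liver and gut, fell by 1.81 on few reads. This call of Soat2 did not hold without GW1, GW2, GW3 or Veh1 (adjusted p up to 0.0968). Its relative Soat1, of the sebaceous list, rose, and the call of Soat1 held without any single library.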
